A study of Mus musculus with 6 samples.

Results

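The phosphagen and adenylate kinase genes of the heart were described as a set of 8 genes chosen by name: Ckm, Ckmt2 and Ckb, which encode creatine kinases, Slc6a8, Gatm and Gamt, which serve creatine supply, and Ak1 and Ak3, which encode adenylate kinases. All 8 were found among the 54532 genes of the deposited expression table. They were chosen with earlier results of these data known, so the choice was not independent of the data. RNA was sequenced from the hearts of 6 mice, 3 control mice (Ctrl, Mrps5 fl/fl) and 3 conditional knockout mice (cKO, Mrps5 fl/fl;MCM), 12 weeks after tamoxifen, so that hearts with and without the deletion could be compared. MRPS5 belongs to the small ribosomal subunit of mitochondria. Every mouse carried loxP-flanked Mrps5 alleles and was injected with tamoxifen at 45 mg/kg/day for 5 days from 8 weeks of age. The cKO mice carried in addition MCM, a MerCreMer recombinase driven by the αMHC promoter, which is active in cardiomyocytes. No mouse carried MCM without the loxP-flanked alleles, so effects of the deletion and of active MerCreMer cannot be told apart. The labels name the tissue as heart and the study's methods as ventricle. The methods also give the mice as 12-week-old, which is earlier than the labels allow for mice injected from 8 weeks of age and examined 12 weeks later.

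Creatine kinase moves a phosphate between ATP and creatine, and phosphocreatine serves contracting muscle as a fast reserve of high-energy phosphate. The mitochondrial enzyme charges creatine next to the adenine nucleotide carrier, and the cytosolic enzymes use phosphocreatine to remake ATP at the myofibrils and ion pumps. Adenylate kinases interconvert ATP, ADP and AMP, so that AMP rises when ATP runs down, and AMP feeds both the AMP-activated protein kinase and the breakdown of adenine nucleotides. The heart makes little creatine itself and takes it up from blood.

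The promoters of the creatine kinase genes are shown because these genes encode the muscle, mitochondrial and brain forms of the same enzyme. Their RNA is present at very different levels in the heart. The 250 bases before the start of transcription were taken from RefSeq (GRCm38.p6), where 7 of the 8 genes were matched, and are written 5′ to 3′ on the strand of the gene. Ckm lies at chr7:19410844-19411093 on the plus strand, Ckmt2 at chr13:91876886-91877135 on the minus strand and Ckb at chr12:111672339-111672588 on the minus strand. The RefSeq start of Ckm lies 6318 bases inside the gene's 5′ end in the deposited table. Capitals mark matches, on either strand, to the CCAAT box (CCAAT), the TATA box (TATAAA), the E box of muscle regulators (CAGCTG), a further E box (CACGTG), the half-site of nuclear receptors (AGGTCA), the GC box (GGGCGG) and the core of the amino acid response element (TGATGNAA).
Ckm: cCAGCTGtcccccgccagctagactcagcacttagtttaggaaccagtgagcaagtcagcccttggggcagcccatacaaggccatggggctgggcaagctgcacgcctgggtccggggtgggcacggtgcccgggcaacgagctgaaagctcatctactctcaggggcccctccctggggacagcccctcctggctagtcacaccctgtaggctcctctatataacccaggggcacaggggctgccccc
Ckmt2: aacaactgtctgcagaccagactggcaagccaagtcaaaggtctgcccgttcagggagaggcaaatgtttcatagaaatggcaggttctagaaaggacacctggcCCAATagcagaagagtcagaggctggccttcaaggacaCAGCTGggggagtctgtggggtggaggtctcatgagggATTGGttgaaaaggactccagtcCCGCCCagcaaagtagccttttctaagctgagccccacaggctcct
Ckb: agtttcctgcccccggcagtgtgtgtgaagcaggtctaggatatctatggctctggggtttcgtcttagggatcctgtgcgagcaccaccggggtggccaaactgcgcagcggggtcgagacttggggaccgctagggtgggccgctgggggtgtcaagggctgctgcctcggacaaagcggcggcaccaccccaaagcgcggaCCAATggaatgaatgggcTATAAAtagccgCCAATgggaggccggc

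In these windows CAGCTG was found 249 bases before the start of Ckm and 107 bases before that of Ckmt2, and not in the Ckb window. Ckb held TATAAA at 28 bases and CCAAT at 46 and 16 bases before its start, and Ckmt2 held CCAAT at 145 and 69 bases and GGGCGG at 46 bases. None of the matches overlapped another. Of the 7 matched genes 3 held CAGCTG (Ckm, Ckmt2 and Ak1), against 13.0% of the 32817 promoters of the same length. CCAAT was found in 3 genes against 33.8% of all promoters, GGGCGG in 3 against 32.7%, AGGTCA in 2 against 14.03% and TATAAA in 1 against 12.4%. CACGTG and TGATGNAA, found in 6.02% and 3.45% of all promoters, were in none of the 7 windows. The GC content was 64.8% for Ckm, 54% for Ckmt2 and 62.8% for Ckb, beside a median of 52.4% over all promoters. Only exact letters were searched, so the tatataa close before the start of Ckm was not marked as TATAAA. These matches describe only the letters of the windows.

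Values are FPKM, that is, fragments relative to gene length in kilobases and to library size, and fold changes are differences in log2(FPKM + 1), a scale on which changes of low genes come out too small. The libraries held 15989322 to 24875499 reads, and Mrps5 fell from 5.99 ± 0.690 to 1.22 ± 0.0947 FPKM (SD, n = 3 each; log2 fold change -1.65, adjusted p = 0.000202, limma), with no overlap between the groups. All 11 cardiomyocyte markers were expressed, and the skeletal muscle genes Myh1, Myh2 and Myh4, whose tissue shares Ckm with the heart, were at 0.00872 FPKM or lower in every heart. The other listed skeletal muscle markers, Tnnt3, Actn3, Mylpf and Neb, were detected in every heart, at 0.0296 to 0.701 FPKM. The content of atrial markers differed between hearts, with Myl7 at 679, 98.6 and 18.1 FPKM in the Ctrl hearts against 71.8, 169.7 and 495 FPKM in the cKO hearts. One heart stood apart, since cKO replicate 2 had no reads from Ddx3y, Kdm5d, Uty and Eif2s3y, which are Y-linked, and 10.7 FPKM of Xist. The study's reporting summary gives all mice as male. For the 8 genes values without this heart are therefore given, and for related genes where leaving it out ended a call.

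Of the 8 genes, 4 were lower in cKO than in Ctrl hearts, 1 was higher and 3 did not pass the threshold of an adjusted p of 0.05. The lower genes were Ckmt2, Ckm, Ak1 and Ak3, which were at 63.5% to 74.6% of their Ctrl level, and the higher gene was Slc6a8, at 129.9% of its Ctrl level. All 8 reached the minimum mean level for testing, 0.5 FPKM over the 6 hearts. Among the 12944 genes tested, 33.3% were called in either direction, 17% as lower (2205 genes) and 16.3% as higher (2110 genes). With the hearts scaled to their FPKM outside the mtDNA the split was 1623 lower and 2647 higher genes, and the calls of the 8 genes were the same. The median log2 fold change was -0.31 over the 8 genes and -0.02 over all genes tested. The groups did not overlap for 5 of the 8 genes, and this was so for 51.2% of all genes tested. For the exact two-sided permutation test of a single gene, 3 against 3 hearts allow no p below 0.1, and these 5 genes had that value.

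**Figure D1:**
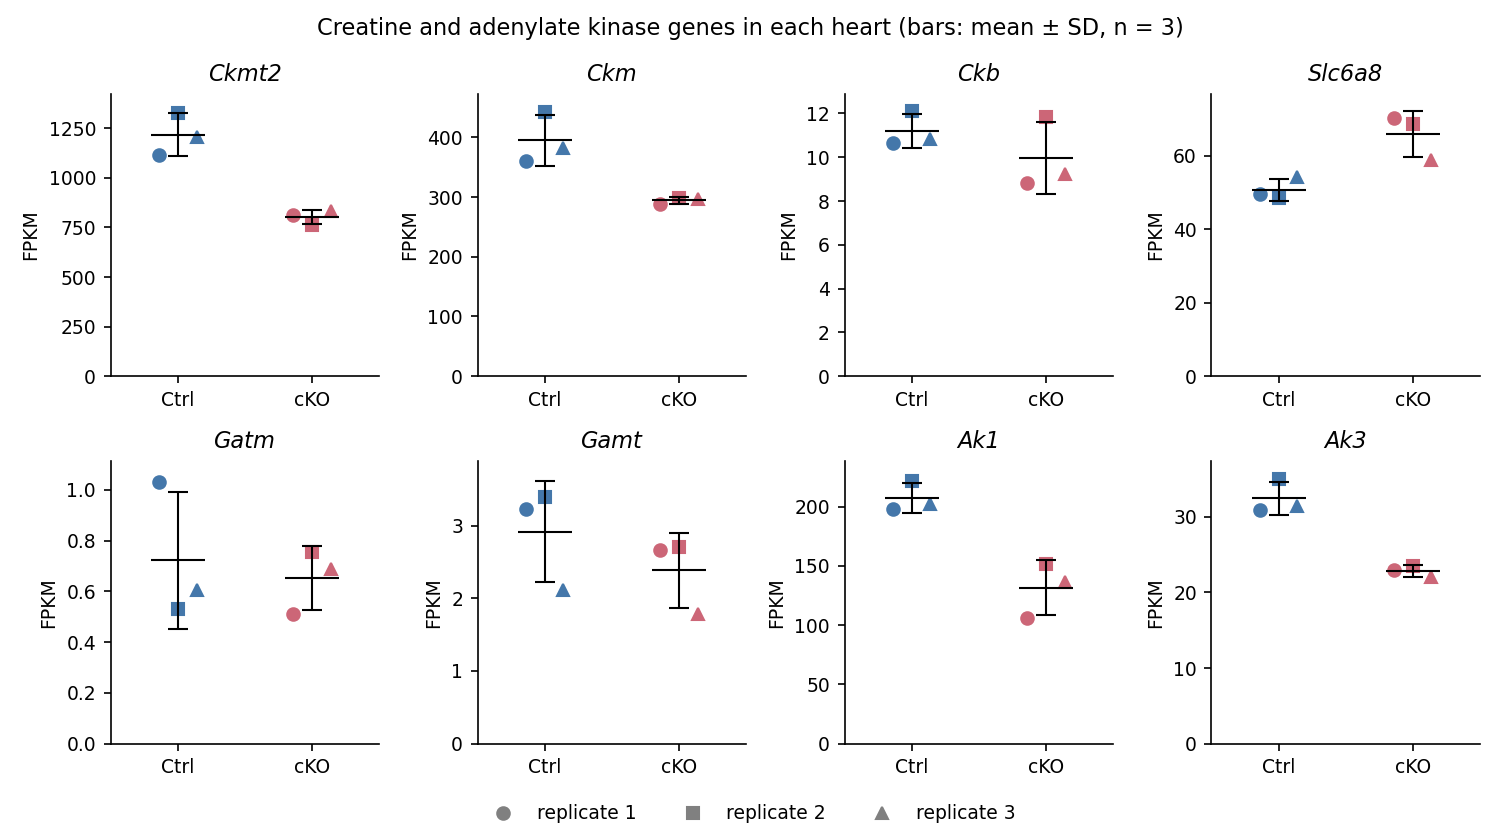
FPKM of each of the 8 genes in each heart, by group, with replicate number shown by the marker and bars for mean ± SD (n = 3 hearts). The groups are apart for Ckmt2, Ckm, Ak1 and Ak3 (cKO lower) and Slc6a8 (cKO higher) and overlap for Ckb, Gatm and Gamt.

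Ckmt2, the creatine kinase of the mitochondria of striated muscle (ENSMUSG00000021622, GRCm38 chromosome 13, 91853387 to 91876885, minus strand, 10 exons), was by level the leading gene of the set. It measured 1113, 1329.5 and 1209 FPKM in the Ctrl hearts (replicates 1, 2 and 3 in this order, as throughout) against 811, 762 and 835 FPKM in the cKO hearts. All 3 cKO hearts lay below all Ctrl hearts, and the lowest Ctrl heart was above the highest cKO heart by more than the SD of either group. The means were 1217 ± 108 and 803 ± 36.9 FPKM, so that 65.9% of the Ctrl level was left (log2 fold change -0.60, SE 0.0960, 95% interval -0.82 to -0.37, adjusted p = 0.00503, limma). In Ctrl hearts Ckmt2 ranked 37 among all genes by mean FPKM and in cKO hearts 46.

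Ckm, the cytosolic muscle creatine kinase (ENSMUSG00000030399, chromosome 7, 19404776 to 19422841, plus strand, 8 exons), measured 360.3, 443 and 382 FPKM in the Ctrl hearts against 288, 298 and 297 FPKM in the cKO hearts. The cKO hearts lay close together, with a coefficient of variation of 1.83%, and below the Ctrl hearts, which spread more (10.9%). The level fell from 395 ± 43.0 to 295 ± 5.40 FPKM, which is 74.6% of the Ctrl level (log2 fold change -0.42, SE 0.0956, 95% interval -0.64 to -0.19, adjusted p = 0.0168, limma). Ckm shares 451 exon bases with the antisense gene A930016O22Rik, which had a mean of 0.469 FPKM, and Ckmt2 shares 84 with the antisense gene 1700119I11Rik, at 3.17 FPKM. The use of strand in counting is not stated, so reads from such pairs cannot be told apart.

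Ckb, the brain-type creatine kinase of the cytosol (ENSMUSG00000001270, chromosome 12, 111669361 to 111672338, minus strand, 8 exons), measured 10.7, 12.1 and 10.8 FPKM in the Ctrl hearts against 8.82, 11.8 and 9.24 FPKM in the cKO hearts. The groups overlapped through cKO replicate 2, the heart without Y-linked reads, which had the highest value of its group. The log2 fold change was -0.16 with a 95% interval of -0.44 to 0.12 (adjusted p = 0.324, limma). Without that heart it was -0.28 with an adjusted p of 0.0498 (limma), at the edge of the threshold.

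The summed creatine kinase level, with the ubiquitous mitochondrial form Ckmt1 included, was 1484, 1785 and 1601 FPKM in the Ctrl hearts against 1109, 1073 and 1141 FPKM in the cKO hearts. The sum in cKO was 68.2% of that in Ctrl, and no hearts of the groups overlapped. Ckmt2 gave 74.99%, 74.5% and 75.5% of this sum in Ctrl and 73.2%, 71.1% and 73.1% in cKO hearts. The share of Ckm was correspondingly larger, at 23.8% to 24.8% in Ctrl and 26.01% to 27.8% in each of the cKO hearts. The ratio of Ckmt2 to Ckm was 3.09, 3.00 and 3.17 in Ctrl and 2.81, 2.56 and 2.81 in cKO hearts. Ckb stayed a minor form, at 0.676% to 0.718% in Ctrl and 0.795% to 1.10% in cKO hearts. Ckmt1 had 12, 1 and 3 reads in Ctrl and 19, 26 and 15 reads in cKO hearts, or 0.107 ± 0.127 and 0.378 ± 0.121 FPKM, which is under the minimum for testing. The FPKM shares and the ratio depend on the deposited gene lengths, 2913 bases for Ckm and 1486 for Ckmt2. In whole reads the mean share of Ckmt2 was 60.5% in Ctrl and 57.3% in cKO hearts. The mean ratio of Ckmt2 to Ckm in reads was 1.57 in Ctrl and 1.39 in cKO hearts. These sums and shares are a description without a test.

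**Figure D2:**
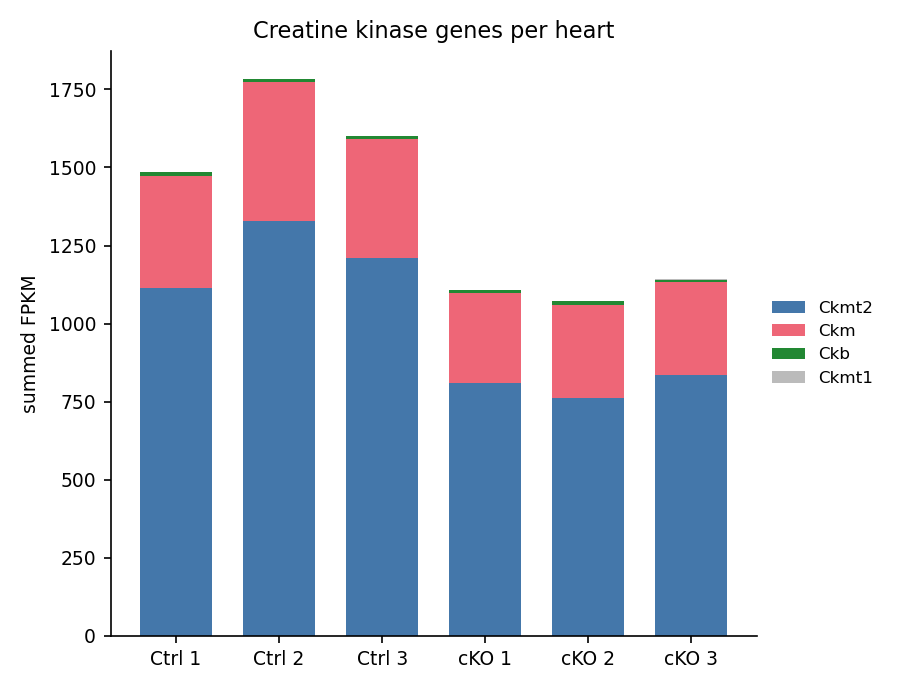
Summed FPKM of the creatine kinase genes Ckmt2, Ckm, Ckb and Ckmt1 in each heart, with the axis from 0 and each colour a gene. The bars of the cKO hearts, 1073 to 1141 FPKM, are lower than those of the Ctrl hearts, 1484 to 1785 FPKM, with nearly the same makeup.

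Slc6a8, the transporter that takes creatine into the cell (ENSMUSG00000019558, chromosome X, 73673150 to 73682502, plus strand, 13 exons), was the gene of the set that rose. It measured 49.7, 48.4 and 54.2 FPKM in the Ctrl hearts against 70.3, 68.6 and 59.0 FPKM in the cKO hearts. The groups did not overlap, but cKO replicate 3 lay nearer to Ctrl replicate 3 than to the other cKO hearts. The means were 50.8 ± 3.02 and 65.98 ± 6.14 FPKM (log2 fold change 0.37, SE 0.0930, 95% interval 0.15 to 0.59, adjusted p = 0.0233, limma). This call was the least stable of the 5. The adjusted p (limma) was 0.0726 without Ctrl replicate 1, 0.0772 without Ctrl replicate 2, 0.0648 without cKO replicate 1 and 0.0524 without cKO replicate 2, with log2 fold changes of 0.32 to 0.35. With the replicate number as a block it was 0.0571.

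Gatm and Gamt encode the enzymes of the successive steps of creatine synthesis, and both were low in these hearts. Gatm (ENSMUSG00000027199, chromosome 2, 122594467 to 122611303, minus strand, 9 exons) measured 1.03, 0.529 and 0.606 FPKM in the Ctrl hearts against 0.512, 0.756 and 0.689 FPKM in the cKO hearts, from 26 to 59 reads a heart. Gamt (ENSMUSG00000020150, chromosome 10, 80258151 to 80261012, minus strand, 6 exons) measured 3.23, 3.40 and 2.12 FPKM in the Ctrl hearts against 2.66, 2.70 and 1.79 FPKM in the cKO hearts, from 65 to 102 reads. The groups overlapped for both genes. Neither gene passed the threshold, with 95% intervals of the log2 fold change of -0.36 to 0.26 for Gatm (adjusted p = 0.790, limma) and -0.61 to 0.19 for Gamt (adjusted p = 0.382, limma). Without cKO replicate 2 the log2 fold changes were -0.10 and -0.28, also short of it. The monocarboxylate transporter Slc16a12, which carries creatine, was also low, at 0.777 ± 0.225 and 0.611 ± 0.120 FPKM, and stayed short of the threshold (adjusted p = 0.410, limma).

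Ak1, the cytosolic adenylate kinase of muscle (ENSMUSG00000026817, chromosome 2, 32621758 to 32635058, plus strand, 7 exons), measured 198, 221 and 202 FPKM in the Ctrl hearts against 106, 152 and 136 FPKM in the cKO hearts. All cKO hearts lay below the Ctrl hearts, and they spread more, with cKO replicate 1 the lowest. With 63.5% of the Ctrl level left (207 ± 12.4 against 132 ± 23.2 FPKM), Ak1 had the largest log2 fold change of the 8 genes, -0.67 (SE 0.137, 95% interval -0.99 to -0.34, adjusted p = 0.0114, limma), although its interval covered the estimates of Ckmt2, Ckm and Ak3. Without cKO replicate 1 it was -0.52, and without cKO replicate 2 it was -0.78.

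Ak3, which uses GTP in the mitochondrial matrix (ENSMUSG00000024782, chromosome 19, 29020833 to 29047961, minus strand, 5 exons), measured 30.8, 34.9 and 31.5 FPKM in the Ctrl hearts against 22.9, 23.5 and 22.0 FPKM in the cKO hearts. The cKO hearts lay within a narrow range below all Ctrl hearts. The level fell from 32.4 ± 2.21 to 22.8 ± 0.756 FPKM, or to 70.4% (log2 fold change -0.49, SE 0.0760, 95% interval -0.67 to -0.31, adjusted p = 0.00453, limma). Ak3 shares 430 exon bases with Cdc37l1 on the other strand, which had a mean of 12.5 FPKM, and reads of the pair cannot be told apart. A processed pseudogene named Ak3l2-ps had a mean of 2.07 FPKM. Between the transcripts of different genes the longest identical run was 20 bases for Ckm and Ckb, 39 bases for Ckmt1 and Ckmt2 and 18 bases for Ak3 and Ak4, each shorter than a read.

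Ak4, a further adenylate kinase of the matrix, measured 8.23, 9.95 and 9.84 FPKM in the Ctrl hearts against 17.4, 11.1 and 10.995 FPKM in the cKO hearts. Its groups did not overlap, but cKO replicate 1 stood far above the other hearts and the gene did not pass the threshold (log2 fold change 0.43, adjusted p = 0.102, limma). Ak6 did not pass it either (4.13 ± 0.200 and 4.87 ± 0.614 FPKM, adjusted p = 0.167, limma), and Ak5, Ak7 and Ak9 were at 0.0934 FPKM or lower in every heart, with Ak8 listed at 0. Ak6 shares 1564 exon bases on the same strand with Taf9, which had a mean of 0.0142 FPKM, and reads of the pair cannot be told apart there.

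By mean level per length the order in Ctrl hearts was Ckmt2, Ckm, Ak1, Slc6a8, Ak3, Ckb, Gamt and Gatm, and cKO hearts kept it. In either group the hearts of neighbours in this order did not overlap. The 8 genes summed to 1917 ± 165 FPKM in Ctrl and 1330.5 ± 26.5 FPKM in cKO hearts. As a share of the FPKM of all nuclear-encoded genes, Ckmt2 took 0.411% to 0.457% in Ctrl and 0.286% to 0.320% in cKO hearts. Ckm took 0.133% to 0.152% and 0.111% to 0.114%, and Ak1 0.0732% to 0.0761% and 0.0410% to 0.0571%, so on this scale too the groups of these 3 genes were apart.

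The profile over the 6 hearts was compared with that of other protein-coding genes whose mean level was 5 FPKM or more, as the root mean square difference between log2 values taken relative to the gene's own Ctrl mean. Nearest to Ckmt2 were Ndufa3 (0.026) and Uqcrfs1 (0.035), a subunit of complex I and the iron-sulfur protein of complex III of the respiratory chain. Nearest to Ckm were Ndufs4 (0.038) and Ndufb3 (0.044), and the nearest to Ak3 was Ndufs7 (0.043), all of complex I, followed for Ak3 by Fem1a (0.043). Ak1 was nearest to Sparcl1 (0.026) and to Pfkm (0.032), the muscle phosphofructokinase of glycolysis. Slc6a8 lay nearest to Tbc1d20 (0.039) and Nisch (0.039), and Ckb to Actn2 (0.041) and Gnb5 (0.048). For Gatm (Igip, 0.067, and Sft2d2, 0.071) and Gamt (P2rx5, 0.094, and Emc9, 0.0998) even the nearest profiles were less alike. Both genes lie under the level asked of the compared genes, with means of 0.687 and 2.65 FPKM. The part of low counts in these distances was not tested. This is a description over 5511 or 5512 genes and 6 hearts.

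Markers of some cell types also differed between the groups, beside 16.3% of all genes tested called higher and 17% lower. Of 11 cardiomyocyte markers 8 were lower in cKO and none was higher, with a median log2 fold change of -0.63, and their summed level was 25089 to 30475 FPKM in Ctrl and 13973 to 21394 FPKM in cKO hearts. Of 6 endothelial markers 3 were lower, with sums of 125 to 143 FPKM in Ctrl and 82.8 to 100.5 FPKM in cKO hearts. Of 7 fibroblast markers 2 were higher and 1 was lower, with overlapping sums (159 to 186 and 157 to 187 FPKM). In tissue RNA, fewer cells of a type and less RNA of a gene per cell cannot be told apart, and the part of these markers in the results on Ckmt2, Ckm, Ak1 and Ak3 was not tested. Without cKO replicate 2 the log2 fold changes were -0.56 for Ckmt2, -0.43 for Ckm, -0.78 for Ak1 and -0.51 for Ak3, and without Ctrl replicate 1, the heart with the most Myl7, they were -0.66, -0.48, -0.70 and -0.52, all past the threshold.

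**Figure D3:**
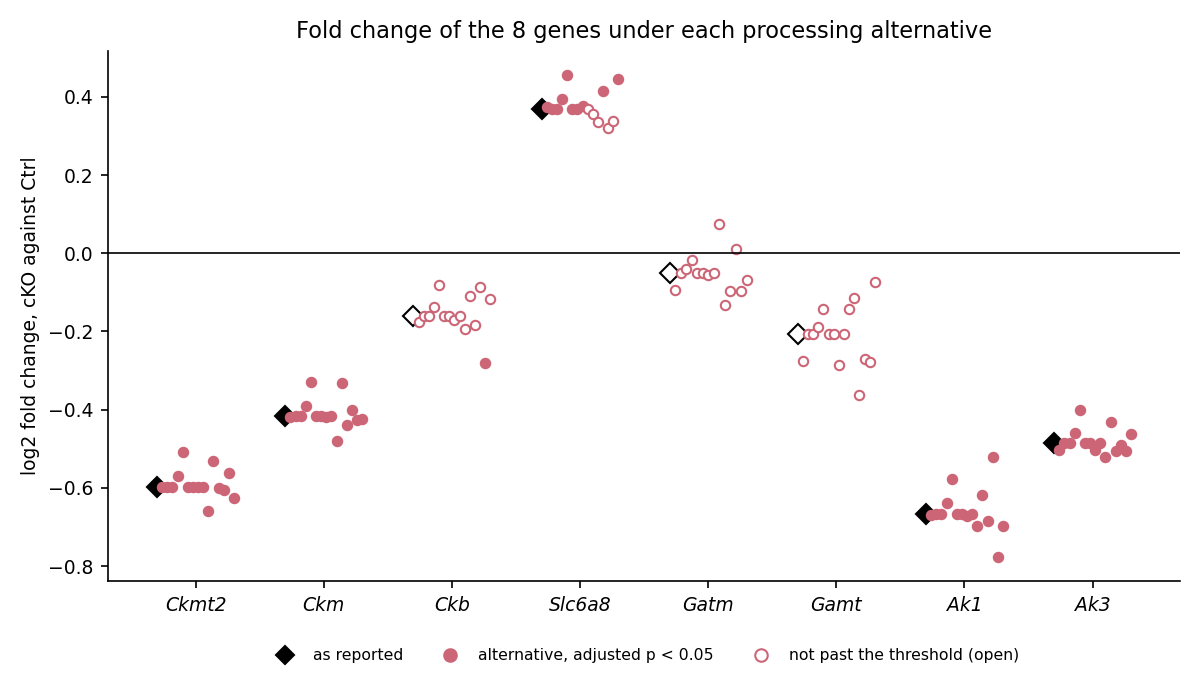
Log2 fold change (cKO against Ctrl) of each of the 8 genes as reported (diamond) and under each processing alternative or with a heart left out (circles), filled where the adjusted p is under 0.05. Ckmt2, Ckm, Ak1 and Ak3 stay below 0 and filled throughout, while Slc6a8 stays above 0 with 5 open circles and Gatm lies on both sides of 0.

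Genes that work next to these enzymes were followed in lists by role. The counts in each list stand beside the shares over all genes tested, 16.3% higher and 17% lower. In the list for exchange of adenine nucleotides and phosphate across the mitochondrial membranes, 9 of 10 genes were tested. In cKO hearts 4 of these rose and 2 fell, with a median log2 fold change of -0.12. The carrier isoforms went in opposite directions. Slc25a4, the adenine nucleotide carrier of heart and muscle, measured 2083, 2494 and 2376 FPKM in the Ctrl hearts against 1428, 1562 and 1500.2 FPKM in the cKO hearts, and it fell (log2 fold change -0.63, adjusted p = 0.00493, limma). Slc25a5, the more widely expressed form, measured 171, 194 and 198 FPKM in the Ctrl hearts against 378, 393 and 353 FPKM in the cKO hearts, and it rose (log2 fold change 0.99, adjusted p = 0.00101, limma). No hearts of the groups overlapped for either gene. The phosphate carrier Slc25a3 was lower (281 ± 25.8 to 215 ± 13.7 FPKM, adjusted p = 0.0239, limma) and the calcium-regulated ATP-Mg carrier Slc25a23 higher (8.87 ± 1.36 to 14.5 ± 1.25 FPKM, adjusted p = 0.00761, limma). Of the porins of the outer membrane, Vdac2 (log2 fold change 0.34, adjusted p = 0.0243, limma) and Vdac3 (0.39, adjusted p = 0.00753, limma) were higher, while Vdac1, the most abundant, was at 416 ± 24.7 and 374 ± 10.95 FPKM and stayed short of the threshold (adjusted p = 0.180, limma). The call of Vdac2 was lost without cKO replicate 2 (adjusted p = 0.0504, limma) and with 3 of the other 5 hearts left out singly, and that of Slc25a3 with 4 of 6 hearts left out singly.

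Of the other nucleotide kinases, 10 of 11 were tested, 3 were higher and 1 lower, with a median log2 fold change of 0.15. Nme1, a nucleoside diphosphate kinase, rose from 2.63 ± 0.214 FPKM in Ctrl to 6.08 ± 0.473 FPKM in cKO hearts (log2 fold change 0.96, adjusted p = 0.000956, limma). Nme1 shares 418 exon bases on the same strand with Gm20390, which was at 0 FPKM, and reads of the pair cannot be told apart there. Nme6 (4.46 ± 0.194 to 6.29 ± 0.874 FPKM) and the thymidylate kinase gene Dtymk (5.78 ± 0.740 to 7.47 ± 0.468 FPKM) were also higher, with adjusted p of 0.0195 and 0.0411 (limma). The call of Dtymk was lost without cKO replicate 2 (adjusted p = 0.0922, limma) and, in all, with 5 of 6 hearts left out singly. Guk1, the guanylate kinase, fell from 43.1 ± 2.24 FPKM in Ctrl to 34.2 ± 0.734 FPKM in cKO hearts (log2 fold change -0.33, adjusted p = 0.0133, limma). Cmpk1, which phosphorylates CMP and UMP, did not pass the threshold (9.81 ± 0.146 and 11.3 ± 0.658 FPKM, adjusted p = 0.0845, limma).

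All 11 genes of the AMP-activated protein kinase and its kinases were tested. In cKO hearts 2 were higher and 2 lower, with a median log2 fold change of 0.12. Over all genes tested, 16.3% were called higher and 17% lower. Prkab1 measured 11.6, 11.2 and 11.7 FPKM in the Ctrl hearts against 5.97, 6.37 and 6.65 FPKM in the cKO hearts (log2 fold change -0.77, adjusted p = 0.00101, limma), whereas Prkab2, the β form of striated muscle, measured 12.0, 13.1 and 8.59 FPKM in the Ctrl hearts against 16.7, 20.4 and 14.3 FPKM in the cKO hearts (0.57, adjusted p = 0.0447, limma). The call of Prkab2 was close to the threshold and was lost with 5 of 6 hearts left out singly, cKO replicate 2 among them (0.45, adjusted p = 0.102, limma), so only the lower level of Prkab1 held throughout. The γ subunit Prkag1 was lower (17.0 ± 1.12 to 13.3 ± 0.791 FPKM, adjusted p = 0.0210, limma) and Strada, a partner of the upstream kinase, higher (1.38 ± 0.0169 to 1.92 ± 0.267 FPKM, adjusted p = 0.0416, limma). Strada shares 158 exon bases with Ccdc47 on the same strand, which had a mean of 20.8 FPKM, and its call was lost with 5 of 6 hearts left out singly. The catalytic subunit Prkaa2 (20.1 ± 0.705 and 22.0 ± 0.608 FPKM), the upstream kinase Stk11 (38.4 ± 3.07 and 30.7 ± 6.56 FPKM) and its scaffold Cab39 (22.9 ± 2.19 and 26.2 ± 2.31 FPKM) did not pass the threshold, with adjusted p of 0.197, 0.153 and 0.186 (limma).

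In the list for breakdown and salvage of AMP and adenosine, 12 of 13 genes were tested, 4 were higher and 2 lower, with a median log2 fold change of 0.29. The 5′-nucleotidases, which strip the phosphate from nucleoside monophosphates, did not move together. Nt5c1a, the AMP-preferring cytosolic form of muscle, fell from 11.3 ± 1.28 FPKM in Ctrl to 5.92 ± 1.29 FPKM in cKO hearts (log2 fold change -0.84, adjusted p = 0.00745, limma), whereas the cytosolic Nt5c (6.46 ± 0.768 to 12.4 ± 2.69 FPKM, adjusted p = 0.00749, limma) and the cell-surface Nt5e (2.39 ± 0.339 to 6.10 ± 0.982 FPKM, adjusted p = 0.00212, limma) rose. Adk, which returns adenosine to AMP, was lower (16.9 ± 1.76 to 12.7 ± 0.734 FPKM, adjusted p = 0.0198, limma). The salvage enzymes Aprt, for adenine, and Hprt, for hypoxanthine and guanine, were higher, Aprt at 9.19, 7.35 and 6.94 FPKM in the Ctrl hearts against 22.8, 15.5 and 17.6 FPKM in the cKO hearts (log2 fold change 1.14, adjusted p = 0.00299, limma), and Hprt from 40.5 ± 2.36 to 51.4 ± 1.67 FPKM (0.34, adjusted p = 0.0142, limma). The AMP deaminase gene Ampd3 did not pass the threshold (9.34 ± 1.01 and 13.6 ± 4.79 FPKM, adjusted p = 0.148, limma), and cKO replicate 1 was at 19.0 FPKM.

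**Figure D4:**
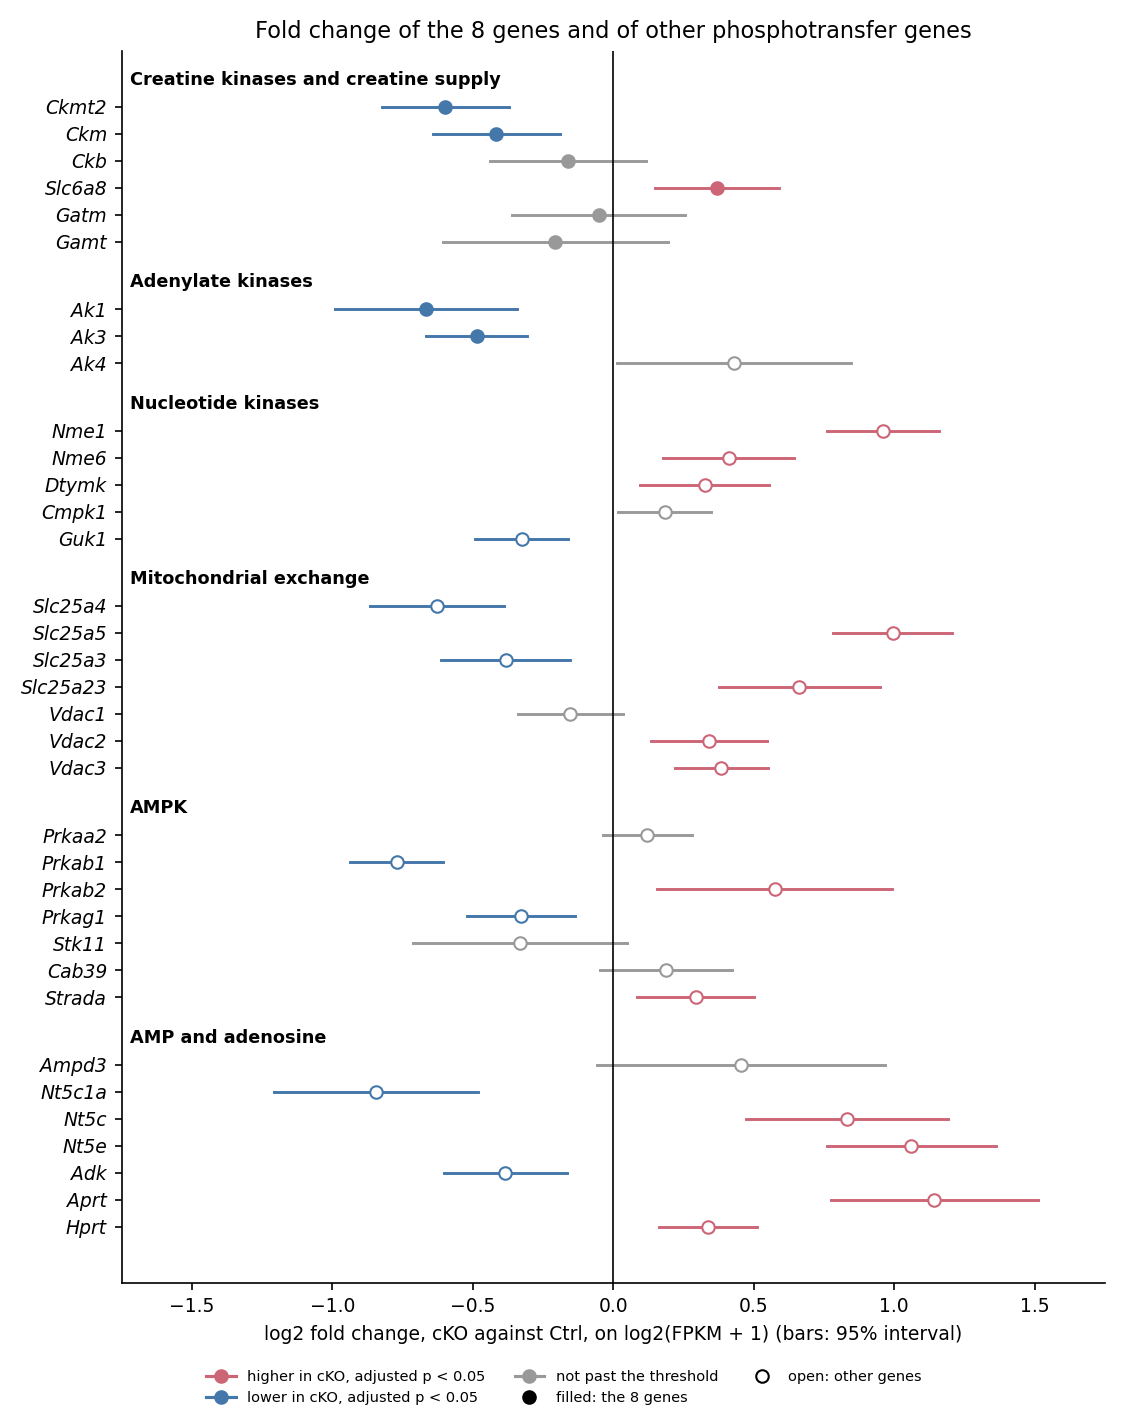
Log2 fold change on log2(FPKM + 1), cKO against Ctrl, with 95% intervals, for the 8 genes (filled) and for the named genes of the neighbouring lists (open), coloured by call. Ckmt2, Ckm, Ak1 and Ak3 lie left of 0, Slc6a8 right of it, and the adenine nucleotide carrier genes Slc25a4 and Slc25a5 on either side of 0. The calls of Dtymk, Prkab2 and Strada, whose intervals lie near 0, were each lost with 5 of 6 hearts left out singly.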

How the data were processed

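The authors prepared poly-A selected libraries, aligned the paired-end reads with HISAT2 and used featureCounts to obtain a count for each gene. The submitters' processing notes name HISAT2 2.0.5, featureCounts 1.5.0-p3 and DESeq2 1.16.1 and the build mm9. The coordinates deposited with the table are of GRCm38: of 54409 gene identifiers shared with GENCODE mouse release M21, 53499 had identical start and end. The authors computed the deposited FPKM values of 54532 genes from count and gene length, and the gene length is the other deposited value used. Whether counting used the strand, and how multiply aligned reads were treated, is not stated. Whole reads were recovered from FPKM and gene length for 100% of values. The library sizes implied by FPKM were 0.913 to 0.980 times the recovered totals in Ctrl and 1.06 times in cKO hearts, so the values had been scaled between hearts before deposit.

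Groups and replicate numbers came from the sample titles. Genes whose mean was 0.5 FPKM or more were compared on log2(FPKM + 1) with limma 3.58.1 in R 4.3.3 (two-sided, eBayes with intensity trend and no covariates). P-values were adjusted by Benjamini and Hochberg over all 12944 genes, and the threshold was 0.05. The comparison is the authors' 2-group design on the log scale, since the deposited unit is not counts. Intervals are 95% intervals of the fit, and ± is SD over 3 hearts. Each p-value sets the difference between the groups against the spread between these hearts, moderated towards that of genes of similar level. The fit was also run on 5 simulated tables with 200 changed genes each, far fewer than were called here. Its outcome is not used as support for these calls. The genes, marker lists and lists of related genes were chosen with earlier results of these data known. Named genes are the 8 genes, Mrps5, the members of each related list past the threshold or, up to 8 a list, with a mean of at least 10 FPKM, and the 2 nearest profiles of each of the 8 genes. A gene that this rule covers is not reported here. Other genes are named as markers, for overlaps in position or to complete the families of creatine transporters, creatine kinases and adenylate kinases.

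Of the marker lists not described with the results, none of 5 atrial and 5 erythroid markers passed the threshold. Of 7 leukocyte markers 1 was lower, and of 6 smooth muscle and pericyte markers 2 were higher and 1 lower. Of 4 Schwann, 5 adipocyte and 7 skeletal muscle markers, 1, 3 and 0 were expressed enough to be tested and none was called. Beside these counts, 16.3% of all genes tested were called higher and 17% lower. The labels do not say whether hearts of the same replicate number are paired. Promoter sequences were from RefSeq. The fit was repeated with a pseudocount of 0.1, without the filter, with a minimum of 1 FPKM and with eBayes robust or without trend. It was also repeated with the hearts rescaled by median of ratios or by their total FPKM outside the mtDNA. Further alternatives were voom on the recovered reads, the replicate number as a block and leaving out each heart in turn. The voom fit took the library sizes implied by FPKM, not the recovered totals.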

Additional observations from a re-analysis of the deposited data

How the results depend on the processing

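Ckmt2, Ckm, Ak1 and Ak3 were lower and past the threshold in all 15 alternatives, with log2 fold changes of -0.66 to -0.51, -0.48 to -0.33, -0.78 to -0.52 and -0.52 to -0.40 and a highest adjusted p (limma) of 0.0493, for Ckm. Slc6a8 was higher throughout, but lost its call in 5 alternatives: with the replicate block (0.37) and on leaving out Ctrl replicate 1 or 2 or cKO replicate 1 or 2, with values of 0.32 to 0.45 over the 6 hearts left out in turn. The count of higher genes among the 8 was therefore 0 with the replicate block and 0 to 1 over the hearts left out. Ckb passed the threshold only without cKO replicate 2, with -0.28 to -0.087 over the hearts left out. Gatm changed sign without Ctrl replicate 1 (0.0737) and without cKO replicate 1 (0.01), in a range of -0.13 to 0.0737, and gave no value at a minimum mean of 1 FPKM. Gamt stayed below 0 and short of the threshold. Over all genes, leaving out hearts gave 1400 to 1993 higher and 1434 to 2006 lower genes, and scaling to the FPKM total outside the mtDNA called 2647 genes higher and 1623 lower, against 2110 and 2205. That scaling left the calls of the 8 genes as they were.

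The labels do not say whether the replicate numbers pair the hearts, and the methods name littermate controls without giving litters. For hearts of the same number, the correlations of deviations from the group means were -0.06, 0.17 and -0.01. With 3 hearts a group these cannot exclude a pairing. The replicate block gave 1874 higher and 1982 lower genes. Among the related genes, Dtymk, Prkab2 and Strada lost their calls in 6, 6 and 7 of 15 alternatives, mostly on leaving out single hearts, with a highest adjusted p (limma) of 0.124, 0.107 and 0.111. Calls were also lost for Slc25a3 (0.0838, without Ctrl replicate 2 or 3 or cKO replicate 1 or 3, and without the filter), Vdac2 (0.0806, without Ctrl replicate 1 or 3 or cKO replicate 1 or 2), Prkag1 (0.0743, without Ctrl replicate 2 or 3 and with scaling outside the mtDNA), Adk (0.0601, without Ctrl replicate 2 or 3 or cKO replicate 3), Nme6 (0.0680, without Ctrl replicate 2 or 3) and Hprt (0.0539, without Ctrl replicate 1 or 3). Ak6 gained a call without cKO replicate 2 (0.0365) and Cmpk1 with scaling outside the mtDNA (0.0441). None of these reversed. The cause was not tested. Gatm and Gamt rest on 26 to 59 and 65 to 102 reads a heart, and the part of depth in their intervals was not tested.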
